A study of Arabidopsis thaliana with 12 samples.

Results

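The plastid genome encodes part of the photosynthetic machinery, and 33 of its genes are described here across 4 genotypes of Arabidopsis seedlings bleached with norflurazon. They are the psa genes of photosystem I (5), the psb genes of photosystem II (15), the pet genes of the cytochrome b6f complex (6), the atp genes of the plastid ATP synthase (6) and rbcL, the large subunit of Rubisco. The members are a fixed list of gene codes, taken by name and not by level, and are 33 of the 38093 genes and of the 134 plastid-encoded genes in the deposited tables.

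RNA was sequenced from whole 5-day-old seedlings of wild-type Col-0 and of gun1-1, gun4-1 and gun5-1, all in the Col-0 background, with 3 libraries each. Every group, the wild type included, was grown on 5 µM norflurazon at a light level of 100 µE, so that no untreated seedlings enter any comparison. The gun (genomes uncoupled) mutants keep nuclear photosynthesis genes on when plastids are damaged. GUN5 is the H subunit of magnesium chelatase, the enzyme that opens the chlorophyll branch, GUN4 binds and activates that enzyme, and GUN1 is a pentatricopeptide repeat protein of the plastid. The treatment text shared by all samples also names piperonylic acid at 100 µM for gun5-1 seedlings, but the labels of the gun5-1 libraries used here give norflurazon alone. The sample labels give whole seedlings and the design text leaf RNA, and mRNA was selected with oligo(dT) beads. The 5 genes listed as shoot markers (AS1, KAN1, YAB1, SPCH and TTG1) and the 7 listed as root markers were above 0 FPKM in all 4 genotypes. They ran from 4.10 FPKM (SPCH) to 62.7 FPKM (YAB1) for shoot and from 0.938 FPKM (PLT1) to 38.4 FPKM (EXPA7 and SCR) for root. Whether each is specific to its organ, TTG1 and SCR among them, was not tested. Summed over the 5 shoot markers, the level went from 105 FPKM in Col-0 to 160 in gun1-1, from 113 to 137 in gun4-1 and from 104 to 137 in gun5-1, each within its own table. Over the 7 root markers it went from 81.6 to 86.0, from 87.6 to 79.5 and from 80.3 to 73.3 FPKM. The higher sum in gun1-1 came from SCR, at 17.8 FPKM in Col-0 and 38.4 in gun1-1, while the other 6 root markers were lower there. By the authors' test, 4 of 5 shoot markers rose in gun1-1, 1 in gun4-1 and 3 in gun5-1. Of the 7 root markers 1 rose in each mutant, and 4 fell in gun1-1 (WER, SHR, COBL9 and EXPA7), 2 in gun4-1 and 2 in gun5-1 (COBL9 and EXPA7 in both). By the same test 18.7%, 8.21% and 16.4% of all tested genes rose in gun1-1, gun4-1 and gun5-1, and 15.0%, 5.92% and 13.1% fell. Whether the marker counts reflect a shift between tissues, and its part in the results, was not tested.

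Plastids transcribe their genes with enzymes of 2 kinds. A bacterial-type polymerase, whose core subunits are encoded by the plastid rpo genes and whose sigma factors and associated proteins come from the nucleus, transcribes most photosynthesis genes. A nuclear-encoded phage-type polymerase transcribes rpo genes and other housekeeping genes, and some genes, several atp genes among them, are known to use both. Plastid messages are mostly made as long cotranscripts that are cut and trimmed. As a rule they lack the long poly(A) tail of nuclear messages, and short tails mark them for decay. Norflurazon blocks phytoene desaturase, a step of carotenoid synthesis, and plastids without carotenoids bleach in the light.

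The members are described in 2 classes by size. In 15 members the protein has 100 residues or more, with 399 to 2253 coding bases, and these are called the longer members. In the other 18 the coding region has 90 to 252 bases, of which 12 encode fewer than 50 residues. The stretches that the results turn on are printed 5′ to 3′ from the RefSeq plastid sequence of build TAIR10.1. The authors' build is not given in the sources used here, but each of the 29 members with a span of its own has the same first and last base in the deposited tables as in that annotation. The other 4 members form pairs that share a deposited span. The next 2 lines show those pairs, with the bases that belong to both coding regions in capitals.
atpB-atpE overlap (chrC:52647-52676, minus strand): gtaaattgaagaaATGAccttaaatctttg
psbD-psbC overlap (chrC:33707-33785, plus strand): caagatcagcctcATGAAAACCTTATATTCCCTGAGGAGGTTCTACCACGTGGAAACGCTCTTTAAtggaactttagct
The start codon of atpE lies inside the last bases of atpB, with 4 shared bases, and psbC begins inside psbD, with 53 shared bases, so reads across these stretches cannot be given to 1 gene of the pair. The next 3 lines show complete coding regions of short members, with start and stop codons in capitals, to show how small these loci are: petN was listed at 0 in all 4 genotypes, psbM at 0 in gun1-1 and psbH at 0 in Col-0.
petN (chrC:28089-28178, plus strand): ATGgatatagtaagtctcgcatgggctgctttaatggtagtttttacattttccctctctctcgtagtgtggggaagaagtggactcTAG
psbM (chrC:28707-28811, minus strand): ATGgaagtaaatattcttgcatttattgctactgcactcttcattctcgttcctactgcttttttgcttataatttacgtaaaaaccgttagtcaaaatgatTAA
psbH (chrC:74485-74706, plus strand): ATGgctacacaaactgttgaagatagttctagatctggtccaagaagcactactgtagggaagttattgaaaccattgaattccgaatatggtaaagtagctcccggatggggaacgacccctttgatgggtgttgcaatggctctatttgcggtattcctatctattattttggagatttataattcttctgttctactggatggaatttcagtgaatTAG
The whole of petN spans 90 bases and psbM 105, while psbH spans 222.

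All values in the text are those of the authors' deposited tables, or are computed from them where this is said. A level is a group FPKM (fragments scaled to transcript length and to the mapped fragments), 1 value for the 3 libraries of a genotype. The spread between libraries and the sequencing depth are therefore unknown. A difference is the deposited log2 fold change of a mutant over Col-0, given with a standard error (SE) derived from the authors' statistic and p-value. A gene is said to have risen or fallen where the authors' Cuffdiff test was run and its q-value was under 0.05. Each table was scaled on its own. For the 22 members that could be compared, Col-0 values in the gun4-1 table were 1.07 to 1.08 times those of the gun1-1 table, and Col-0 values beside gun5-1 were between 0.983 and 0.985 times. Col-0 levels below are from the gun1-1 table, so the fold changes of the other 2 mutants differ slightly from the ratio of the printed levels. In whole seedlings, fewer plastids or green cells and less RNA in each cannot be told apart. The part of oligo(dT) selection in the levels and changes of the members was not tested.

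Every called change in the members went down in gun1-1 and up in gun4-1 and gun5-1. Of the 33 members 21 were tested in gun1-1, where 17 fell and 0 rose, beside 15.0% of all tested genes called lower and 18.7% called higher (33.7% in either direction). In gun4-1 25 were tested, of which 15 rose and 0 fell, beside 8.21% of all tested genes called higher and 5.92% lower (14.1% in all). In gun5-1 24 were tested, of which 16 rose and 0 fell, beside 16.4% called higher and 13.1% lower (29.5% in all). The longer members carried these counts, as all 15 fell in gun1-1, 14 rose in gun4-1 and 15 rose in gun5-1. The median log2 fold change over the 15 was -1.86 in gun1-1, 1.92 in gun4-1 and 2.22 in gun5-1, against medians over all tested genes of -0.02, -0.0026 and -0.02. In linear terms the falls in gun1-1 ran from 1.82-fold to 4.53-fold lower, and the increases from 1.55-fold to 8.41-fold in gun4-1 and from 2.37-fold to 7.93-fold in gun5-1. No longer member was listed at 0 in any genotype. The 3 comparisons share their Col-0 libraries.

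**Figure D1:**
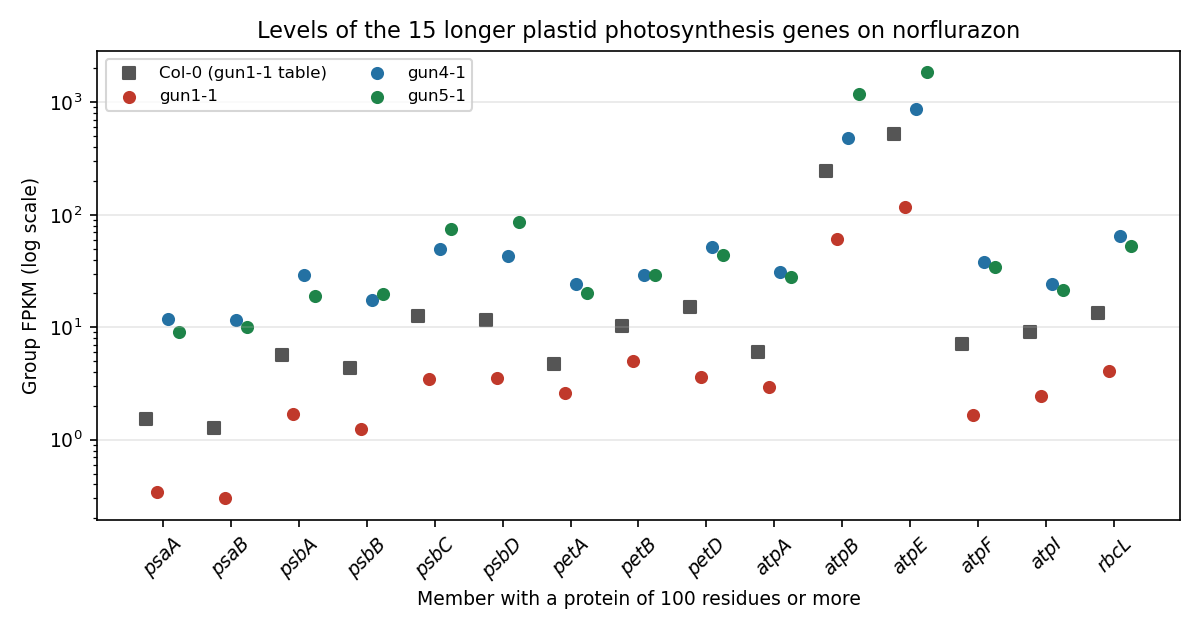
Group FPKM on a log axis for each of the 15 longer members in Col-0 (squares, gun1-1 table) and in the 3 mutants (circles); each point is 1 value for 3 libraries, with no error bar because the tables give none. In every member gun1-1 lies below Col-0 and the other mutants above it, and atpB and atpE lie well above the rest in all 4 genotypes.

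The reaction centre of photosystem I is a pair of large proteins encoded by psaA and psaB, which are neighbours on the minus strand. The level of psaA (ATCG00350, chrC:39605-41857) was 1.53 FPKM in Col-0, 0.342 in gun1-1, 11.8 in gun4-1 and 9.04 in gun5-1. That of psaB (ATCG00340, chrC:37375-39579) was 1.28, 0.300, 11.6 and 9.97 FPKM in the same order. These were the lowest Col-0 levels among the longer members, and psaB had the largest deposited increase of the 15 in both gun4-1 and gun5-1. By the authors' deposited tables psaA changed by -2.16 (SE 0.73) in gun1-1, 2.85 (SE 0.36) in gun4-1 and 2.59 (SE 0.39) in gun5-1. The change of psaB was -2.09 (SE 0.87), 3.07 (SE 0.39) and 2.99 (SE 0.42). All 6 changes passed the authors' test, and within each mutant the genes of this pair differed by less than the SE of their gap (0.53 to 1.14).

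Photosystem II is built around the proteins D1 and D2, encoded by psbA and psbD, and the inner antenna proteins encoded by psbB and psbC. D1 is the subunit that is damaged by light and replaced continually. The deposited level of psbA (ATCG00020, chrC:383-1444, minus strand) was 5.64 FPKM in Col-0, 1.69 in gun1-1, 29.2 in gun4-1 and 19.0 in gun5-1. That of psbB (ATCG00680, chrC:72371-73897, plus strand) was 4.31, 1.25, 17.6 and 19.8 FPKM. Thus gun4-1 stood above gun5-1 for psbA and slightly below it for psbB, and neither difference passed the test between these mutants given further on. The overlapping genes stood higher: psbD (ATCG00270, chrC:32711-33772) at 11.5, 3.56, 43.0 and 86.5 FPKM, and psbC (ATCG00280, chrC:33720-35141) at 12.6, 3.47, 49.6 and 74.8 FPKM. In gun1-1 the 4 genes fell by 1.69 (psbD, SE 0.52) to 1.86 (psbC, SE 0.41) in the authors' deposited table. In gun4-1 psbA rose by 2.27 (SE 0.32), psbB by 1.92 (SE 0.30), psbC by 1.88 (SE 0.27) and psbD by 1.80 (SE 0.35). In gun5-1 the largest deposited increase of the group was that of psbD at 2.94 (SE 0.33), followed by psbC at 2.60 (SE 0.27), psbB at 2.22 (SE 0.31) and psbA at 1.78 (SE 0.34). All 12 changes passed the test.

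Upstream of psbA, the 250 bases before the start codon hold a pair of sigma-type boxes, TTGACA and TATACT, shown in capitals on the line below.
psbA promoter elements (chrC:1530-1559, minus strand): TTGACAtggctatataagtcatgtTATACT
The first base lies 115 bases before the start codon and the boxes are 18 bases apart. A pair of TTGACA and TANNNT with 15 to 18 bases between them, on either strand, was present in 1 of 33 member windows and in 3 of 83 windows of plastid coding genes (3.61%), so it was rare among the members too. The box TTGACA, which the pair also contains, was found upstream of 3 members (psbA, petD and atpF) and in 15.7% of all windows, and TATAAT upstream of 15 members and in 42.2% of all windows. Both strands were searched, and a window without a match says only that these letters are not in it.

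The cytochrome b6f complex carries electrons between the photosystems, and petA encodes its cytochrome f, petB cytochrome b6 and petD subunit IV. The deposited level of petA (ATCG00540, chrC:61657-62619) was 4.71 FPKM in Col-0, 2.59 in gun1-1, 24.4 in gun4-1 and 20.2 in gun5-1. That of petB (ATCG00720, chrC:74841-76292, with an intron) was 10.2, 5.04, 29.4 and 29.2 FPKM. That of petD (ATCG00730, chrC:76481-77672, with an intron) was 15.2, 3.62, 52.1 and 44.0 FPKM. All 3 lie on the plus strand. In gun1-1 petA had the smallest fall of the 15 longer members, 0.86 (SE 0.52), and petB fell by 1.01 (SE 0.50), while petD fell by 2.07 (SE 0.70). The gap between the neighbours petB and petD in gun1-1 was 1.06 with an SE of 0.86. In gun4-1 the deposited increases were 2.27 (petA, SE 0.36), 1.43 (petB, SE 0.35) and 1.67 (petD, SE 0.37). In gun5-1 they were 2.12 (SE 0.38), 1.54 (SE 0.37) and 1.56 (SE 0.40).

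The ATP synthase genes lie in 2 clusters: atpI, atpH, atpF and atpA in one, atpB and atpE in the other. In the first cluster atpA (ATCG00120, chrC:9938-11461), the alpha subunit, had 6.01 FPKM in Col-0, 2.92 in gun1-1, 31.0 in gun4-1 and 28.1 in gun5-1. For atpF (ATCG00130, chrC:11529-12798), a stalk subunit of the membrane sector, the levels were 7.04, 1.65, 38.1 and 34.1 FPKM. For atpI (ATCG00150, chrC:14021-14770), the membrane subunit beside the ring, they were 9.12, 2.43, 24.2 and 21.3 FPKM. Thus atpI was the highest of the 3 in Col-0 and the lowest of the 3 in gun4-1 and gun5-1. In the authors' deposited tables atpA and atpF rose by 2.26 (SE 0.27) and 2.33 (SE 0.44) in gun4-1 and by 2.25 (SE 0.28) and 2.30 (SE 0.47) in gun5-1. The increase of atpI was 1.30 (SE 0.34) and 1.25 (SE 0.36). The gap between atpA and atpI was 0.96 (SE 0.43) in gun4-1 and 0.998 (SE 0.45) in gun5-1, with no test made of it. In gun1-1 atpA fell by 1.04 (SE 0.38), atpI by 1.91 (SE 0.56) and atpF by 2.09 (SE 0.95), the last with a q-value of 0.0382 by Cuffdiff.

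The second cluster stood apart in level. The catalytic beta subunit gene atpB (ATCG00480, chrC:52660-54156) had 247 FPKM in Col-0, 60.3 in gun1-1, 481 in gun4-1 and 1180 in gun5-1. The gene of the epsilon subunit, atpE (ATCG00470, chrC:52265-52663), had 526, 116, 877 and 1857 FPKM. The other 13 longer members lay between 1.28 and 15.2 FPKM in Col-0. Together atpB and atpE made up 88.3% of the summed FPKM of the 15 in Col-0, 84.3% in gun1-1, 76.1% in gun4-1 and 87.1% in gun5-1. In gun1-1 they fell by 2.03 (SE 0.19) and 2.18 (SE 0.45). In gun4-1 they had the smallest deposited changes of the 15: atpB rose by 0.86 (SE 0.19), and atpE, at 0.63 (SE 0.42) with a q-value of 0.0716 by Cuffdiff, was the longer member that did not pass. In gun5-1 they rose by 2.28 (SE 0.19) and 1.84 (SE 0.45). The coding region of atpB holds the longest run of A among the 33 members, 10 bases, shown here in capitals.
atpB A run (chrC:54091-54120, minus strand): tcgatacgtgAAAAAAAAAAcctgggacgt
The median of the longest run was 5 bases over the longer members and 3 over the short ones. For atpE it was 4. Whether such runs bear on the level in libraries selected with oligo(dT) was not tested.

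Rubisco fixes carbon dioxide, and rbcL (ATCG00490, chrC:54958-56397, plus strand) lies next to atpB on the opposite strand. Its deposited level was 13.3 FPKM in Col-0, 4.12 in gun1-1, 65.1 in gun4-1 and 52.8 in gun5-1. The changes were -1.69 (SE 0.32), 2.19 (SE 0.22) and 2.01 (SE 0.22), and all 3 passed. The change of rbcL exceeded that of its neighbour atpB by 1.33 (SE 0.29) in gun4-1, whereas the gap in gun5-1 was -0.27 (SE 0.30).

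**Figure D2:**
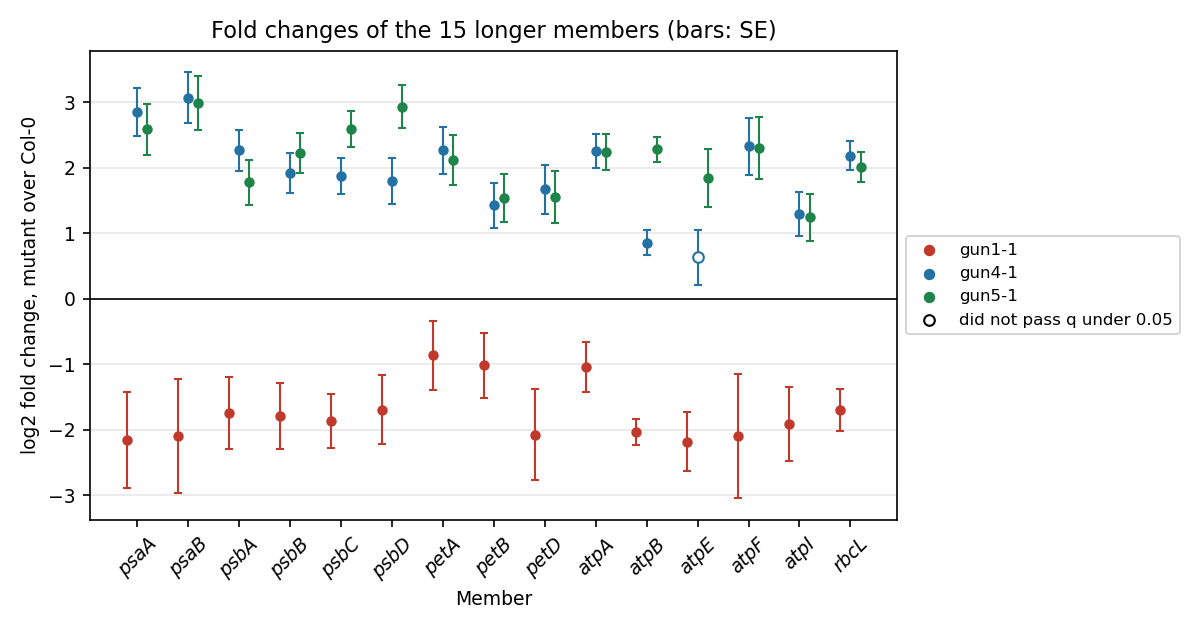
Deposited log2 fold change of each longer member in gun1-1, gun4-1 and gun5-1 over Col-0, with bars of 1 SE; the open circle marks atpE in gun4-1, which did not pass. All gun1-1 points lie below 0 and all others above it, and gun4-1 and gun5-1 separate most at atpB, atpE, psbD and psbC.

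The mutants were then compared with each other through the difference of their log2 fold changes, with p-values adjusted by the Benjamini-Hochberg method over all genes tested in both tables. This error counts the shared Col-0 libraries once per table. The Col-0 level enters both fold changes and, apart from table scaling, cancels in their difference. The SE of a difference is therefore likely too large, and fewer genes may pass. The change in gun1-1 was below that in gun4-1 for all 15 longer members, with differences from -2.44 (petB) to -5.16 (psaB). Over all genes 6.19% were called in that comparison, 2.38% lower and 3.81% higher in gun1-1. It was also below that in gun5-1 for all 15, with differences from -2.56 (petB) to -5.08 (psaB), where 1.71% of all genes were called, 0.852% lower and 0.858% higher in gun1-1. The largest adjusted p among the 15 was 0.00201 against gun4-1 and 0.00379 against gun5-1, both for petB.

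Between gun5-1 and gun4-1, 1 of the 15 longer members differed, with 2.79% of all genes called (2.07% higher in gun5-1 and 0.720% lower). It was atpB, higher in gun5-1 by 1.42 (SE 0.27), with an adjusted p of 5.11e-05 for the difference test. Next in size were the differences of atpE at 1.21 (SE 0.62), psbD at 1.14 (SE 0.48) and psbC at 0.72 (SE 0.38), and none of them passed. Their adjusted p-values were 0.550, 0.301 and 0.597. The other 11 differed by less than 0.5 in size, from -0.49 (psbA) to 0.30 (psbB). Their intervals were wide, since the SE of the difference ran from 0.31 (rbcL) to 0.65 (atpF) among them. For rbcL the difference was -0.17 with a 95% interval of -0.79 to 0.44, and for psaA -0.26 with an interval of -1.30 to 0.78. A difference that did not pass does not show that the mutants had the same level.

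The nuclear genome encodes the remaining subunits of the same complexes, and 30 of these genes served as partners. In gun1-1 they rose while the plastid-encoded longer members fell: all 30 rose, with a median of 1.94 and a range from 1.04 (PSBR) to 4.94 (RBCS2B). In gun4-1, 28 of 30 rose, with a median of 0.83, and in gun5-1 all 30, with a median of 1.94. The shares of all tested genes that rose were 18.7% in gun1-1, 8.21% in gun4-1 and 16.4% in gun5-1. By complex, the plastid and nuclear medians in gun1-1 were -2.12 and 2.38 for photosystem I (2 and 12 genes) and -1.76 and 1.76 for photosystem II (4 and 9 genes). They were -1.01 and 1.64 for the cytochrome complex (3 and 2 genes), -2.03 and 1.61 for the ATP synthase (5 and 3 genes), and -1.69 and 2.31 for Rubisco (1 and 4 genes).

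In gun4-1 the plastid-encoded side of every complex had the larger median increase. The plastid and nuclear medians were 2.96 and 0.88 for photosystem I, 1.90 and 0.59 for photosystem II, 1.67 and 0.42 for the cytochrome complex, 1.30 and 0.66 for the ATP synthase, and 2.19 and 1.09 for Rubisco. In gun5-1 the medians were closer, at 2.79 and 2.08, 2.41 and 1.75, 1.56 and 1.58, 2.25 and 1.62, and 2.01 and 2.61 in the same order. No test was made between the plastid and nuclear lists. Of the 30 nuclear partners 27 were higher in gun5-1 than in gun4-1 by the difference test, with a median difference of 1.19 (median SE 0.25), while the median difference of the longer plastid members was -0.03 (median SE 0.49). With unequal SE, the counts of the 2 lists are not comparable.

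**Figure D3:**
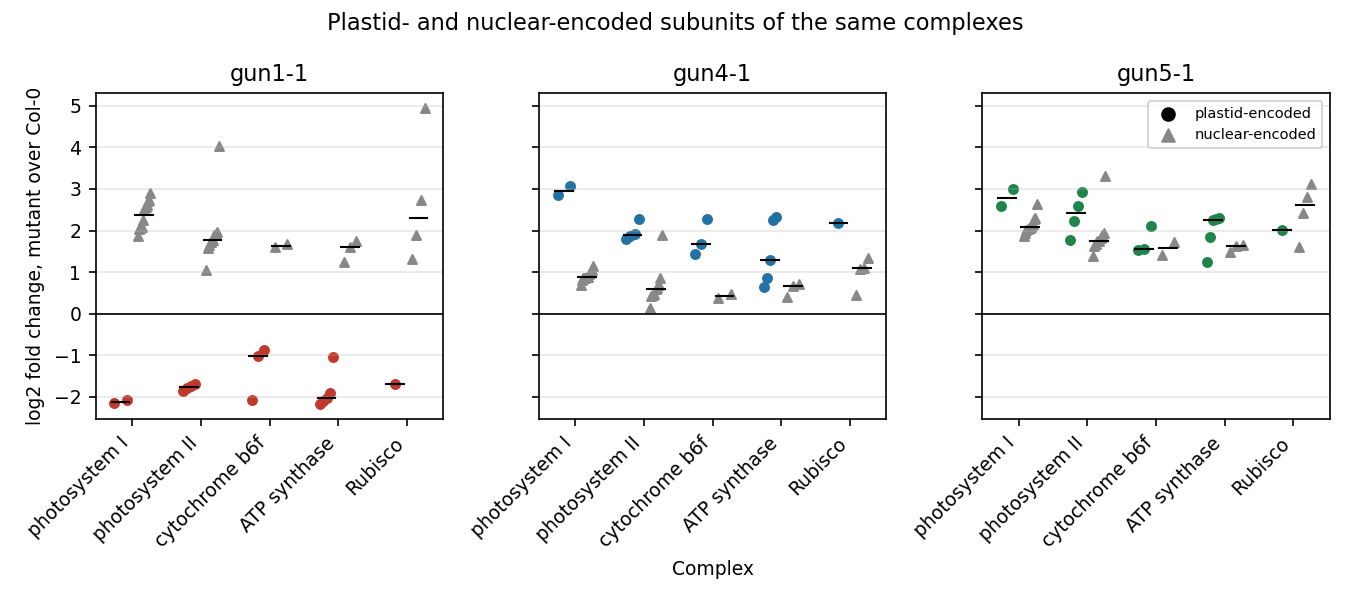
Deposited log2 fold changes of plastid-encoded longer members (circles) and nuclear-encoded subunits (triangles) of the same 5 complexes in gun1-1, gun4-1 and gun5-1; black lines are medians. The circles lie below 0 and the triangles above it in gun1-1, and both lie above 0 in gun4-1 and gun5-1.

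Among the named partners, PSBQ2, a subunit of the oxygen-evolving complex, rose by 4.02 (SE 0.19) in gun1-1, 1.88 (SE 0.20) in gun4-1 and 3.30 (SE 0.19) in gun5-1 in the authors' deposited tables. RBCS2B, a small subunit of Rubisco, rose by 4.94 (SE 0.19), 1.35 (SE 0.19) and 3.12 (SE 0.19). It belongs to a family with near-identical sequences, so its share of the family's reads is uncertain. The smallest called increases were those of PSBR (1.04 in gun1-1, 1.39 in gun5-1) and of PETC, the Rieske protein (0.38 in gun4-1, 1.42 in gun5-1), and of ATPG (1.25 in gun1-1, 0.39 in gun4-1). The partners that did not pass in gun4-1 were PSBR at 0.13 and RBCS1A at 0.46.

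Genes needed to transcribe the members did not all change in the same direction. The 4 plastid rpo genes, which encode the core of the bacterial-type polymerase, changed in the direction of the members: all 4 fell in gun1-1, from -1.02 (rpoC1, SE 0.51) to -1.98 (rpoB, SE 0.32), and all 4 rose in gun4-1 and gun5-1. Their increases ran from 0.81 (rpoA, SE 0.17) to 2.72 (rpoC2, SE 0.30) in gun4-1 and from 1.17 (rpoA, SE 0.17) to 2.22 (rpoB, SE 0.21) in gun5-1. The level of rpoA, 187 FPKM in Col-0, was far above those of rpoB (6.12), rpoC1 (2.01) and rpoC2 (1.29).

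Nuclear genes for plastid transcription changed in other combinations than the plastid genes. All 6 sigma factors rose in gun1-1, with a median of 1.00, where the plastid genes fell, SIG1 by 1.77 (SE 0.18) and SIG4 by 1.25 (SE 0.23). All 6 rose in gun5-1, with a median of 1.07, SIG4 by 1.35 (SE 0.24) and SIG1 by 1.23 (SE 0.18). In gun4-1, where the plastid genes rose, 1 of 6 did, SIG2 by 0.40 (SE 0.24), with a median of 0.19. Of 13 proteins associated with the plastid polymerase, 4 rose and 5 fell in gun1-1, 2 rose in gun4-1, and 7 rose and 1 fell in gun5-1. Among all tested genes 18.7% rose and 15.0% fell in gun1-1. The shares were 8.21% and 5.92% in gun4-1, and 16.4% and 13.1% in gun5-1. FSD2, an iron superoxide dismutase, fell by 0.68 (SE 0.25) in gun1-1, PTAC6 rose by 0.36 (SE 0.19) in gun4-1, and FLN2, a fructokinase-like protein, fell by 0.39 (SE 0.18) in gun5-1. Of the 2 phage-type polymerase genes listed for plastid transcription, AT2G24120 (SCA3, listed here as RPOTP) fell in gun4-1 by 0.43 (SE 0.19). It did not pass in the other 2 mutants. The other, AT5G15700 (listed here as RPOTMP), fell by 0.93 (SE 0.32), 1.13 (SE 0.35) and 1.03 (SE 0.33) in gun1-1, gun4-1 and gun5-1.

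Nuclear factors that process or stabilize messages of these members were mostly higher in gun1-1 and gun5-1. Of 8 on the list, 7 rose in gun1-1, 1 in gun4-1 and 7 in gun5-1, with medians of 0.90, 0.17 and 1.06. Over all tested genes 18.7%, 8.21% and 16.4% rose in these mutants. HCF173, which acts on psbA, rose by 1.28 (SE 0.17) in gun1-1 and 1.25 (SE 0.17) in gun5-1. HCF107, which acts on psbH, rose by 1.21 (SE 0.28) in gun1-1, and MRL1, needed for rbcL messages, by 1.21 (SE 0.17) in gun5-1. HCF152, which acts on petB, rose by 0.80 (SE 0.20) in gun5-1, PRFB3 by 0.57 (SE 0.25) in gun1-1 and PGR3 by 0.51 (SE 0.23) in gun4-1. Of the genes without a symbol in the annotation, AT5G08720, listed here as HCF145, rose by 0.73 (SE 0.18) in gun1-1. AT5G42310, listed here as CRP1, rose by 0.82 (SE 0.21) in gun5-1.

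Among other plastid messages, every called change had the direction of the members in that mutant. Of 49 listed genes for the NDH complex, the polymerase, the ribosome and other functions, 36 were tested in gun1-1, where 22 fell and none rose, with a median of -1.56. In gun4-1, 27 of 38 tested rose, with a median of 1.58, and in gun5-1 33 of 39, with a median of 1.84. No gene of these 49 fell in gun4-1 or gun5-1. Over all tested genes 15.0% fell in gun1-1, while 8.21% rose in gun4-1 and 16.4% in gun5-1. The ribosomal protein genes had the lowest list median in gun4-1, 0.77, with 10 of 16 tested genes called, from rps19 at 0.38 (SE 0.20) to rps2 at 2.42 (SE 0.48). The NDH genes had medians of -1.53, 1.86 and 1.93, with ndhC falling by 2.26 (SE 0.59) in gun1-1 ndhA rising by 2.32 (SE 0.35) in gun4-1 and 2.96 (SE 0.37) in gun5-1, and ndhE rising by 3.96 (SE 1.31) in gun5-1. Genes in the inverted repeat, such as ndhB, have identical copies, and their values are uncertain. In the last list, ycf1 (ATCG01130) fell by 1.85 (SE 0.17) in gun1-1 and rose by 2.59 (SE 0.18) in gun5-1, matK rose by 2.72 (SE 0.26) in gun4-1, and clpP, a protease subunit, changed by -1.31 (SE 0.36), 1.01 (SE 0.26) and 1.84 (SE 0.25) in the 3 mutants.

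The mitochondrial genome, the other source of messages without long tails, gave few tested genes. Of 161 listed, 11, 13 and 10 were tested in gun1-1, gun4-1 and gun5-1. Of these 1 rose in gun1-1, 4 in gun4-1 and 1 in gun5-1, and none fell, with medians of 0.38, 1.30 and 0.25. The shares of all tested genes called higher were 18.7%, 8.21% and 16.4%. The counts in gun1-1 and gun5-1 did not exceed those shares. The part of poly(A) selection in these values was not tested.

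**Figure D4:**
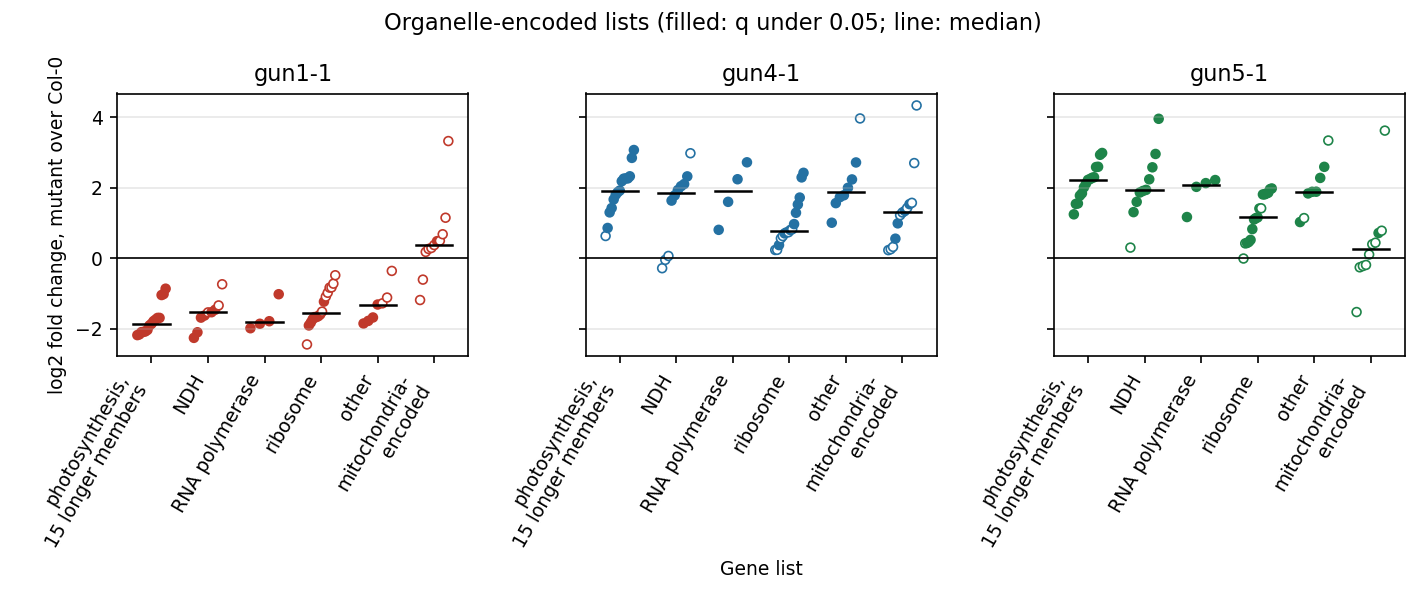
Deposited log2 fold changes of tested genes with a finite value in 5 plastid lists and in the mitochondria-encoded genes, for gun1-1, gun4-1 and gun5-1; filled circles passed q under 0.05 and lines are medians. In gun1-1 every plastid point lies below 0 and 9 of 11 mitochondrial points above it.

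The 18 short members carried little that could be compared. Of these, 6 (psbF, psbN, psbT, petG, petL and petN) were listed at 0 in all 4 genotypes, and 16 were listed at 0 in at least 1 genotype. The 2 members above 0 in all 4 were psbE, one chain of the haem-binding cytochrome of photosystem II, and atpH, the ring subunit of the ATP synthase. Zeros numbered 11 in Col-0, 14 in gun1-1, 7 in gun4-1 and 8 in gun5-1. In the same libraries other short members had the highest levels of all 33. The deposited level of psbM (105 coding bases) was 6967 FPKM in Col-0, 0 in gun1-1, 5338 in gun4-1 and 13474 in gun5-1. That of psbI was 1864, 0, 1098 and 8881 FPKM, and that of psaJ 2373, 0, 731 and 2224 FPKM. These levels are not read as abundance, nor the zeros as absence, since the depth behind them is unknown.

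Few short members were tested: 6 in gun1-1, 10 in gun4-1 and 9 in gun5-1. In gun1-1 the test called psaJ and psbK lower, with q-values of 0.0158 and 0.00729 by Cuffdiff, both listed at 0 there against 2373 and 129 FPKM in Col-0. In gun4-1 psbK was at 55.0 FPKM and in gun5-1 at 355 FPKM, and neither change passed. In gun4-1 and gun5-1 the test called psbH higher, listed at 0 in Col-0, 11.7 FPKM in gun1-1, 28.5 in gun4-1 and 94.8 in gun5-1, with q-values of 0.0176 and 8.02e-04 by Cuffdiff. A member at 0 has no finite fold change. Besides psaC, given below, the other 4 members with zeros were psaI, psbJ, psbL and psbZ. The level of psaI was 1013 FPKM in gun4-1 alone and that of psbJ 927 FPKM in gun1-1 alone. That of psbL was 1907 in gun4-1 and 1082 in gun5-1, and that of psbZ 137 in gun4-1 and 214 in gun5-1. Each was listed at 0 elsewhere and had no change that passed. These 4 encode small membrane subunits of the photosystems.

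The 3 short members with the longest coding regions, 246 to 252 bases, gave no change that passed. Their changes were finite, save that of psaC in gun1-1, where it was listed at 0 and untested. The level of psbE was 20.3 FPKM in Col-0, 11.2 in gun1-1, 41.2 in gun4-1 and 52.9 in gun5-1, with changes of -0.85 (SE 1.24), 0.92 (SE 1.46) and 1.40 (SE 1.42). That of atpH was 36.3, 29.9, 102 and 68.2 FPKM, with changes of -0.28 (SE 1.12), 1.38 (SE 0.60) and 0.93 (SE 0.69). The level of psaC, an iron-sulfur subunit of photosystem I, was 6.49 FPKM in Col-0, 0 in gun1-1, 28.3 in gun4-1 and 28.1 in gun5-1, with changes of 2.02 (SE 1.91) and 2.14 (SE 1.89) in the last 2. Thus psbE and atpH were lower in gun1-1 and higher in the other mutants than in Col-0, by amounts within the error for psbE and, in gun1-1, for atpH. For psaC the deposited statistic and Cuffdiff p-value disagree, at 9.56 and 0.289 in gun4-1 and at 9.51 and 0.259 in gun5-1. The SE printed for psaC follows the p-value. A large statistic beside a high p-value was listed for 3 short members in gun4-1 and 1 in gun5-1.

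**Figure D5:**
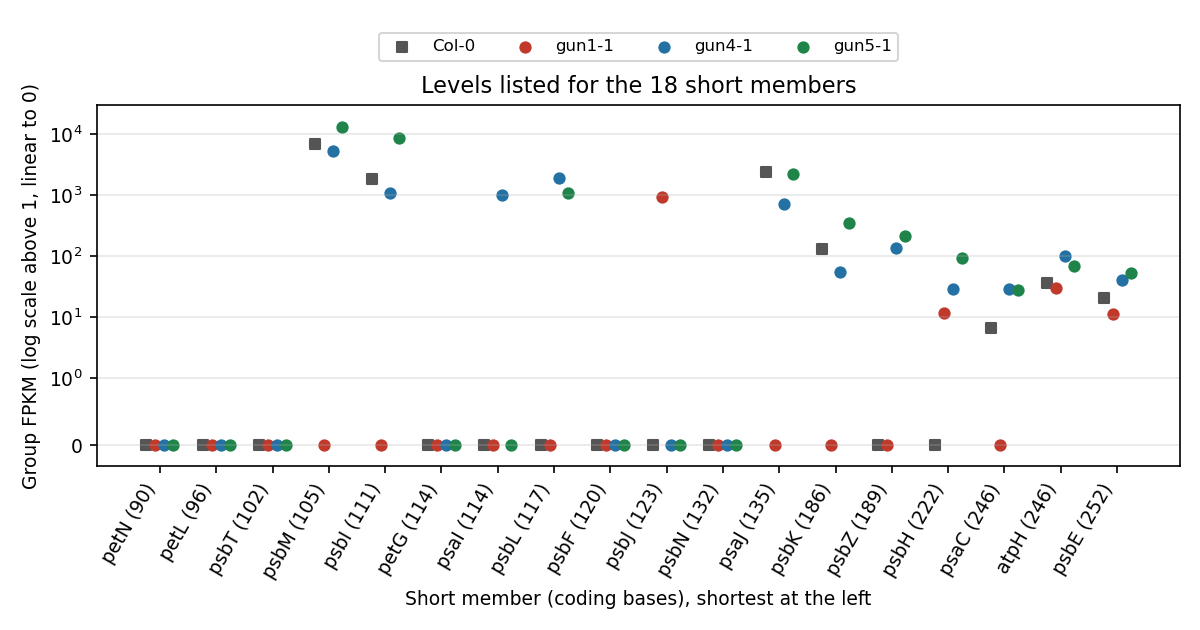
Group FPKM listed for the 18 short members in Col-0 (squares) and the 3 mutants (circles), ordered by coding length; the axis is logarithmic above 1 and linear to 0, and points on the lowest line are listed at 0. High values and values of 0 stand side by side for the same gene, as for psbM at 6967 FPKM in Col-0 and 0 in gun1-1.

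The order of the 15 longer members by size of deposited change had features in common between mutants, with no test made of it. In gun4-1 it ran from atpE and atpB through atpI, petB and petD to psaA and psaB, and in gun5-1 from atpI, petB and petD to psbD and psaB. In both mutants atpI, petB and petD were among the 5 smallest deposited changes, and psaA and psaB among the 4 largest. The place of psaA in gun5-1 is uncertain. Its change (2.59, SE 0.39) was within 1 SE of that of atpF (2.30, SE 0.47). With log2(FPKM + 1) it was no longer among the 4 largest there, while the other places named in this comparison held. Both rankings use the same Col-0 libraries. In gun1-1, 10 of the 15 deposited changes lay between -1.74 and -2.18 and the 3 smallest in size were those of petA, petB and atpA. With log2(FPKM + 1) the 3 smallest in gun1-1 were those of petA, psaB and atpA.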

How the data were processed

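Whole-seedling RNA of 12 libraries (4 genotypes, 3 biological replicates each) was sequenced. Cuffdiff, Cufflinks, TopHat and Trimmomatic are the tools listed, with no role, per the submitters' processing notes. Tool versions and the build used for alignment are not given in the sources used. The authors deposited 3 tables of 64480 transcripts and 38093 genes, which hold group FPKM values scaled within each table. The deposited log2 fold change sets each mutant against Col-0, and the deposited test statistic (a score) carries its sign. The p-value and q-value were deposited by the authors with it. No value of a single library is held, so depth and the spread between libraries are unknown.

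Where a gene had several transcripts, the one with the largest FPKM summed over all groups stood for it, and every member had 1. Calls needed a status of OK and q under 0.05. The SE is the log2 fold change over the statistic or, if larger, over the normal quantile of p, the latter only where p exceeded 5e-05. A difference between mutants was divided by the root of the summed squared SE, and its p was adjusted over all genes tested in both tables. The computation was tested on simulated data with independent errors, so that test did not cover the sharing of the Col-0 libraries. Members and lists were chosen with earlier results of these data known, so counts and medians describe them and no list was tested. Named genes are all members and, in each other list and mutant, the 2 called genes with the highest and the 2 with the lowest finite change, of which the text gives some. Python 3.11.15, pandas 2.3.3, NumPy 2.4.6, SciPy 1.17.1 and matplotlib 3.10.9 were used. Plastid sequences come from RefSeq TAIR10.1, matched by coordinates.

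The mutated GUN1 gene was at 137 FPKM in gun1-1 against 149 in Col-0, GUN4 had 2.21 FPKM in Col-0 (gun4-1 table) and 3.67 in gun4-1, and GUN5 had 189 FPKM in Col-0 (gun5-1 table) and 683 in gun5-1, a called increase. These levels do not check the labels, since a mutated gene can still be transcribed.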

Additional observations from a re-analysis of the deposited data

How the results depend on the processing

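Numbers of called members were 17 (gun1-1), 15 (gun4-1) and 16 (gun5-1), and were 13 to 17, 14 to 15 and 15 to 16 under a q of 0.01, an FPKM minimum of 5 in one group, another choice of transcript, and without proteins under 100 or 50 residues. The median over members with a finite change kept its sign under log2(FPKM + 1), centring on all genes, the FPKM filter and both length limits. It moved in gun1-1, from -1.78 to -1.01, where 5 FPKM in both groups was required, which kept 5 members. The counts of members that differed between mutants (15, 15 and 1) were the same in all 3 alternatives. With log2(FPKM + 1), 7 of 61 single fold changes moved by more than their SE. They were those of psaA and psaB in all 3 mutants and that of psbB in gun1-1. Centring moved none of 61. No paired analysis was possible because the tables hold group values, and leaving out replicates was not run for the same reason. The depth behind the values is unknown, for the short and the longer members alike.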
